A study of Mus musculus with 27 samples.

Results

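Microglia, the resident macrophages of the brain, owe their identity to a small set of DNA-binding proteins, and 9 genes for such transcription factors are described here: Spi1, Irf8, Runx1, Cebpa, Sall1, Maf, Mef2a, Mef2c and Bhlhe41. They were chosen by name, as factors known to specify or maintain microglia, and not by their values, though with earlier results of these data known. Their symbols were matched to the identifiers of the count table through the GENCODE annotation of the mouse genome, which gave 9 of the 56691 genes in the table. All 9 passed the filter on low counts and are among the 17573 genes tested.

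The study set out to learn what gut bacteria do to microglia once blood has entered the brain tissue, an injury (intracerebral hemorrhage, ICH) modelled by injecting collagenase. RNA was sequenced from microglia sorted by flow cytometry from around the hematoma of wild-type (WT) mice in 9 groups of 3 libraries. The mice were specific pathogen-free with no further treatment (SPF), given an antibiotic cocktail (ABX) or kept germ free (GF), and each condition has collagenase groups at day 3 and day 7 and a sham group given PBS. All 3 sham groups are labelled day 7, so a comparison of day 3 with sham also differs in day. The labels give no age, sex or strain, and do not say whether the libraries of a group came from separate or pooled animals, so p-values measure the spread between libraries only.

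Spi1 encodes PU.1, an ETS-family factor required for all macrophages. It opens enhancers together with IRF8, an interferon regulatory factor, RUNX1, a factor of early blood and microglial progenitors, and C/EBPα, the product of Cebpa. SALL1, a zinc-finger protein, holds microglia apart from other macrophages, and MAF, MEF2A, MEF2C and BHLHE41 act at enhancers of genes of the resting state, several of which depend on signalling by TGF-β and by the CSF1 receptor.

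The 7 members with an entry in the RefSeq promoter table (build GRCm38.p6) have 13 annotated start sites, and 1 promoter is shown for each of 4 members. Irf8 and Cebpa are shown because they are the members called in the germ-free mice below, and Mef2a and Mef2c because their levels were correlated. Each sequence runs 5′ to 3′ on the gene's own strand over 300 bases, from 250 before the start site to 50 after it. Capitals mark matches to 7 short motifs searched on both strands, namely GAGGAA for PU.1, GAAA, any 2 bases and GAAA again for IRF factors, TTGCNNAA for C/EBP, CTA, any 4 bases and TAG for MEF2, TGTGGT for RUNX, TGCTGA for MAF and CACGTG, the E-box.
Irf8 (chr8:120736108-120736407, plus strand): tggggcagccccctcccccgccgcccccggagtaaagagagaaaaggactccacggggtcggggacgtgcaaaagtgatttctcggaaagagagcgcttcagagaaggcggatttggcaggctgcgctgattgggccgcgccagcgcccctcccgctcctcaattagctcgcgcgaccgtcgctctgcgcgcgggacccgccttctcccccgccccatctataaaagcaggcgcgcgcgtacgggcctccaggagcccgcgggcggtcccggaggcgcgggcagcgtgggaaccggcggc
Cebpa (chr7:35119043-35119342, plus strand): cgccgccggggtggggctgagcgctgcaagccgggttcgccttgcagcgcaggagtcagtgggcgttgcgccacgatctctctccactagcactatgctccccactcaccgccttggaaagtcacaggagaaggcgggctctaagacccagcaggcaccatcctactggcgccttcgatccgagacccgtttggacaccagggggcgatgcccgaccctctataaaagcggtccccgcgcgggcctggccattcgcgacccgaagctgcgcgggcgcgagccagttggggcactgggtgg
Mef2a (chr7:67372809-67373108, minus strand): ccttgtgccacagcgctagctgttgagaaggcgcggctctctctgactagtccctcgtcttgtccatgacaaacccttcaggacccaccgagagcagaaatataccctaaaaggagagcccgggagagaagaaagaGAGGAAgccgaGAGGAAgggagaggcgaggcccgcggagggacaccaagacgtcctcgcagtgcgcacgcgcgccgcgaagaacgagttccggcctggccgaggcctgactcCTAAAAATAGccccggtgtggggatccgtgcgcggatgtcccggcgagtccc
Mef2c (chr13:83503784-83504083, plus strand): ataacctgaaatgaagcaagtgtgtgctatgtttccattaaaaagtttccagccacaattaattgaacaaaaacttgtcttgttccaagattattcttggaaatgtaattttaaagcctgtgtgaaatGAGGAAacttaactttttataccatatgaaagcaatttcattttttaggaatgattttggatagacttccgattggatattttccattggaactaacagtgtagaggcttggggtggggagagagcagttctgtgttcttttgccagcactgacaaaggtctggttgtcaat

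The Mef2a window holds the PU.1 letters at -114 and -103 and the MEF2 letters at -2 from the start site. The Mef2c window holds the PU.1 letters at -122. No match to any of the 7 motifs was found in the Irf8 and Cebpa windows, which says only that these letters are not in those windows. Of all 32851 promoters in the table, 28.3% hold the PU.1 letters, 3.69% those of MEF2, 3.44% those for IRF factors, 10.8% those for C/EBP, 16.8% those for RUNX, 19.5% those for MAF and 7.15% the E-box. A match is a description of the sequence and not of binding.

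Levels are given as CPM, counts scaled to library size, after adjustment by the trimmed mean of M values (TMM) and, unless replicate numbers are given, in the order of replicates 1, 2 and 3. The libraries held 41664864 to 79090595 counts and between 9185 and 18408 genes with at least 1 count. In 7 libraries fewer than 12000 genes were detected: all 3 of GF ICH day 7, 2 of ABX ICH day 7 and 2 of GF sham. TMM factors were lowest in ABX ICH day 7 replicate 1 (0.476), GF sham replicate 1 (0.517) and ABX ICH day 7 replicate 3 (0.644), against 0.735 to 1.309 in the other libraries, so that the scaled levels of these 3 are higher than those from library totals. The 8 microglial markers checked were present in every library, summing to between 23132 CPM in ABX ICH day 3 and 108434 CPM in ABX ICH day 7, although Csf1r reached as low as 4.48 CPM. Neutrophil and monocyte markers are given beside the results they move with.

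Levels can be compared between genes only per length. On the median over the 27 libraries, per kilobase of the longest annotated transcript, Irf8 (130 CPM per kb) and Spi1 (110 CPM per kb) were the highest of the 9, followed by Mef2c at 83.9 CPM per kb and Mef2a at 28 CPM per kb. Sall1 followed at 12.8 CPM per kb, Maf at 9.06 CPM per kb, and Runx1, Bhlhe41 and Cebpa at 5.71, 5.49 and 5.34 CPM per kb. Per kilobase of all annotated exons, Spi1 (83.4 CPM per kb) stood above Irf8 (64 CPM per kb).

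**Figure D1:**
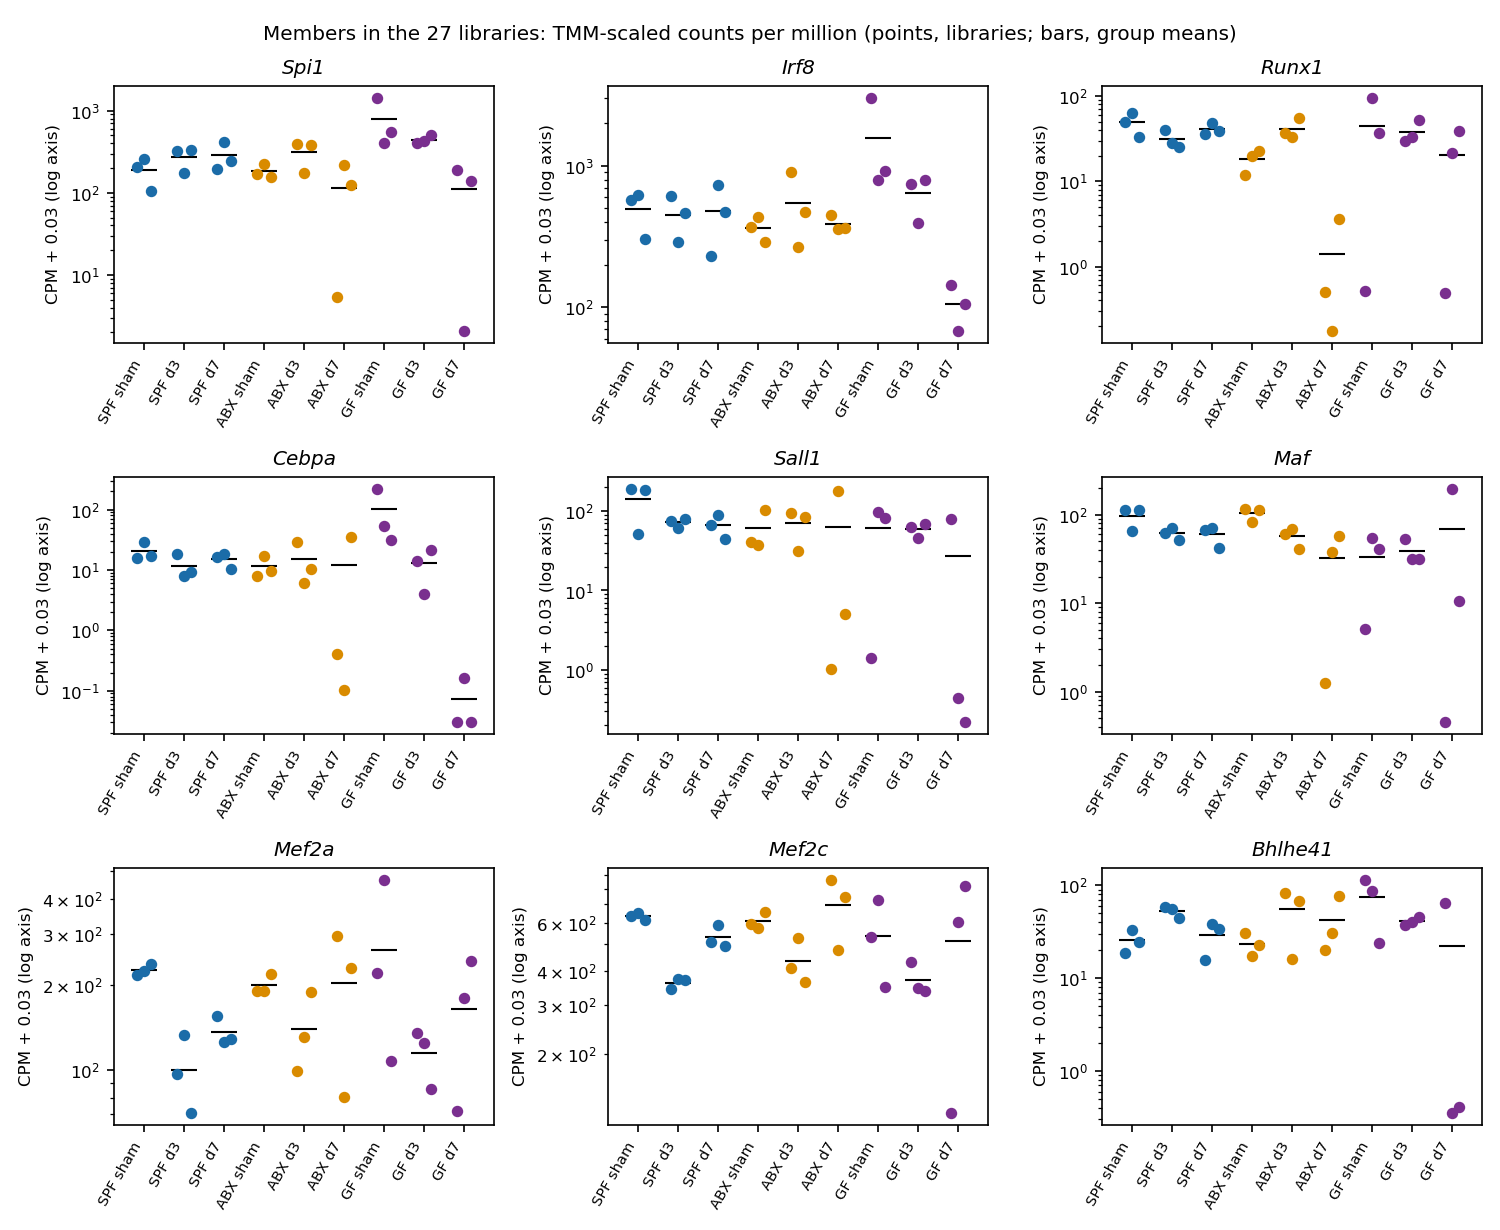
Level of each member (CPM + 0.03, log axis) in the 27 libraries, by group (d3 and d7 are ICH day 3 and ICH day 7); points are libraries in replicate order and bars are group means of 3. Irf8 in GF ICH day 7 lies between 67.5 and 144 CPM, under every other library, and Cebpa is at 0 in 2 of the 3 libraries of that group. Against GF sham alone, 11.6% of tested genes were lower without overlap in that group, and against GF ICH day 3 32.6%.

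Irf8 and Cebpa fell in germ-free mice at day 7 after ICH, and they were the only members called in any of the 24 comparisons of the fit over all groups. Members were called in 6 comparisons, each including the GF ICH day 7 group, and in all 6 the members called were Irf8 and Cebpa, both lower. The 6 share libraries and are not separate evidence.

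In the other 18 comparisons edgeR called 0 members. In 8 of those 18 at least 1 member had an unadjusted p under 0.05 by edgeR, at most 2, and DESeq2 called 1 member in 6 of them and limma voom 1 member in 2. Of all tested genes, 3.46% to 21.7% had an unadjusted p under 0.05 by edgeR in the 18 comparisons. The shares of all genes called by DESeq2 and limma voom are not given here, so those counts are not read against a background. At the adjusted threshold, edgeR called few genes of any kind in the 18. The share of all tested genes called in either direction was 0.102% in SPF mice at day 3 against sham, 0.0797% at day 7 and 0% between the days. In ABX mice it was 0.125% at day 3, 0.945% at day 7 and 0.728% between the days, and in GF mice at day 3 it was 0.00569%. It was 0.0854% for ABX against SPF at day 7, 0.00569% for GF against SPF in sham, 1.3% for the mean day 3 response and 0.125% for the mean GF minus SPF difference. In the remaining 7 of the 18 it was 0%.

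Irf8 (ENSMUSG00000041515, GRCm38 chromosome 8, 120736358 to 120756694, plus strand) was at 3036, 795 and 924 CPM in GF sham, at 740, 391 and 790 CPM in GF ICH day 3, and at 144, 67.5 and 105 CPM in GF ICH day 7. All 3 day 7 libraries lay below every library of the other 8 groups, whose lowest value was 230 CPM. Taking single groups, 11.6% of tested genes were lower without overlap against GF sham. That share was 32.6% against GF ICH day 3 and 24.4% against SPF ICH day 7. The log2 fold change from sham to day 7 in germ-free mice was -3.91 ± 0.6 (SE), with an adjusted p of 0.000251 by edgeR's quasi-likelihood test. By library totals in place of TMM the sham values were 1570, 876 and 962 CPM and the log2 fold change was -3.71, with an adjusted p of 7.91e-05 by edgeR.

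In the other 2 conditions Irf8 was not called at day 7. It was at 571, 623 and 302 CPM in SPF sham and at 230, 732 and 475 CPM in SPF ICH day 7, which overlap. It was at 370, 436 and 289 CPM in ABX sham and at 452, 356 and 361 CPM in ABX ICH day 7, which overlap as well. The day 7 log2 fold change was -0.06 in SPF mice, with a 95% interval from -1.1 to 0.98, and 0.09 in ABX mice, from -0.95 to 1.14. The difference between the GF and SPF day 7 responses was tested directly and was -3.85 ± 0.78 on the log2 scale (adjusted p = 0.00604, edgeR). Limma voom did not call that difference (-3.48, adjusted p = 0.0526). The difference between the ABX and SPF responses was 0.15 ± 0.75.

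Cebpa (ENSMUSG00000034957, GRCm38 chromosome 7, 35119293 to 35121928, plus strand) was at 222, 54.2 and 31.5 CPM in GF sham and at 14, 4.04 and 21.4 CPM in GF ICH day 3. In GF ICH day 7 it was at 0, 0.132 and 0 CPM, which is 7 counts in the 3 libraries together. The day 7 libraries therefore lay below every sham and every day 3 library of the germ-free mice, as 11.6% and 32.6% of tested genes did. The fitted log2 fold change from sham was -11.1 ± 2.3 (adjusted p = 0.00282, edgeR); with so few counts its size depends on the prior count and is no bound.

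Both calls against sham rested on a spread estimated over all 9 groups. Fitted on the groups compared only, Irf8 was at -3.72 (adjusted p = 0.0594) and Cebpa at -10.99 (adjusted p = 0.214, edgeR), so neither passed. Without the 2 GF sham libraries under 12000 genes, Irf8 was at -3.13 (adjusted p = 0.00389) and Cebpa at -9.41 (adjusted p = 0.0138, edgeR).

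Cebpa was also near 0 in 2 of the 3 ABX ICH day 7 libraries, at 0.379 and 0.0722 CPM, against 35.5 CPM in the third. That group was not called against ABX sham (7.86, 16.9 and 9.62 CPM; log2 fold change 0.06, 95% interval from -2.86 to 2.99). In SPF mice Cebpa was at 15.5, 28.9 and 17.3 CPM in sham and at 16.6, 18.2 and 10.3 CPM at day 7, which overlap. The GF minus SPF difference in the day 7 response of Cebpa was -10.65 ± 2.55 (adjusted p = 0.0163, edgeR). That call ended without any 1 of the 3 SPF sham libraries (adjusted p up to 0.0761) and without the 2 GF sham libraries under 12000 genes (-8.96, adjusted p = 0.0592). In the fit on the groups compared only, neither Cebpa (adjusted p = 0.0925) nor Irf8 (-3.85, adjusted p = 0.0702, edgeR) passed in this difference.

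The share of all tested genes called lower sets the scale for these counts. It was 12.7% for GF ICH day 7 against sham, where 2 of 9 members were called lower, and 13.4% against GF ICH day 3, where Irf8 changed by -2.6 ± 0.56 (adjusted p = 0.00483) and Cebpa by -8.14 ± 2.05 (adjusted p = 0.0112, edgeR). It was 11.8% for GF against SPF mice at ICH day 7, where Irf8 changed by -2.18 ± 0.56 (adjusted p = 0.0142) and Cebpa by -8.33 ± 2.07 (adjusted p = 0.0127, edgeR), and 6.76% for the difference in day 7 response. Against SPF mice the Irf8 call ended without SPF ICH day 7 replicate 2, GF ICH day 7 replicate 2 or GF ICH day 7 replicate 3 (adjusted p up to 0.0695), and the Cebpa call without GF ICH day 7 replicate 3 (adjusted p = 0.0511, edgeR). For the mean day 7 response over the 3 conditions it was 16.5%, and for the mean of day 7 minus day 3 it was 16.8%, where 15 of 18 fits with 1 library left out moved the count of members called, to between 0 and 4. Beside these shares, 2 calls among 9 members are not read as particular to the members.

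The median log2 fold change of the 9 members in GF ICH day 7 against sham was -1.18, against -2.1 over all tested genes. Against GF ICH day 3 it was -0.92, against -2.49 over all tested genes. In both comparisons the members' median lay closer to 0. The median over all tested genes includes genes of low count and is not matched to the members' levels. Among genes with a mean of at least 10 CPM, medians by GC content ran from 1.41 to -3.93 against sham. The members' medians are therefore not read as particular to them.

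**Figure D2:**
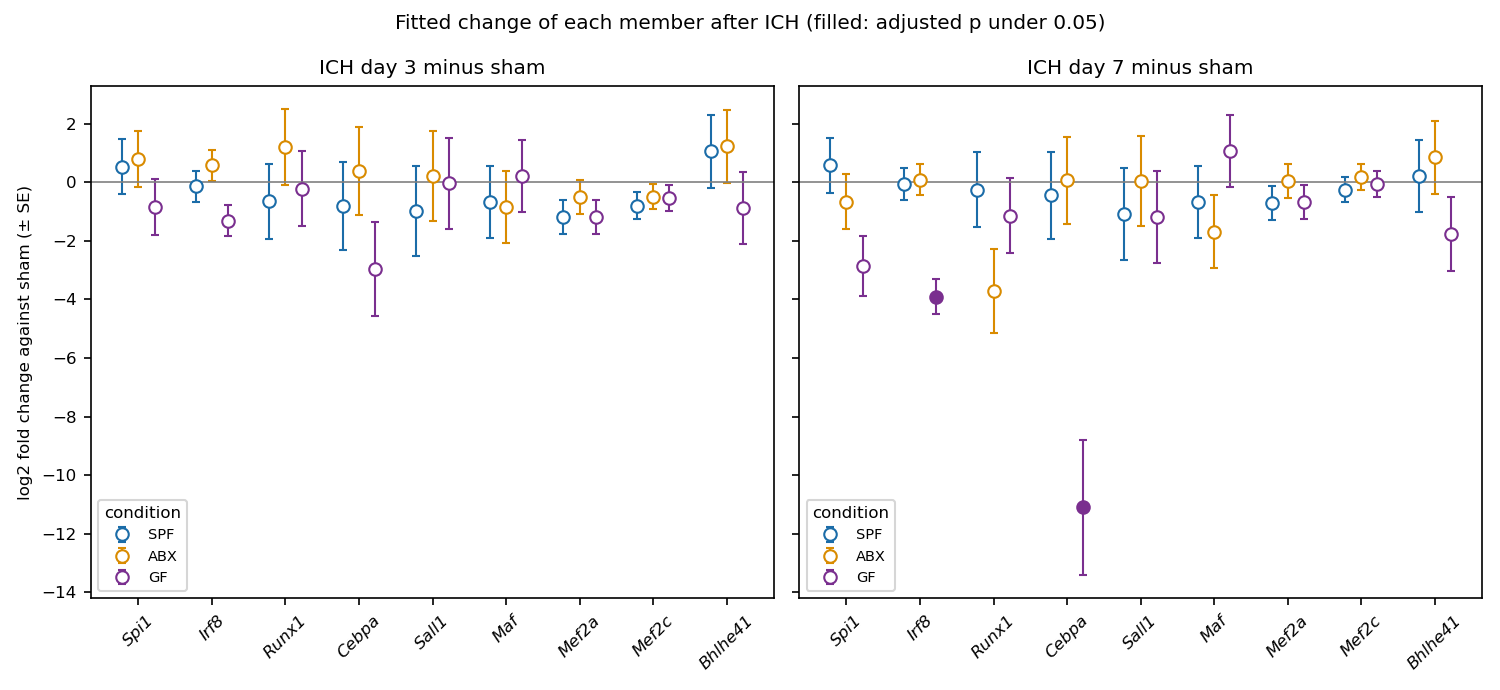
Log2 fold change (± SE) of each member from sham to ICH day 3 (left) and to ICH day 7 (right) in SPF, ABX and GF mice, from the edgeR fit; filled points have an adjusted p under 0.05. The filled points are Irf8 at -3.91 and Cebpa at -11.1, both in germ-free mice at day 7.

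GF ICH day 7 differed from the other groups in more than the members, and these values stand beside each fall above and below. Its 3 libraries are all under 12000 detected genes. Neutrophil markers (9 genes) summed to between 920 and 3573 CPM there, against 42.9 to 895 CPM in the other groups, and monocyte markers (6 genes) to between 310 and 1876 CPM, against 4.95 to 811 CPM. Dendritic cell markers (6 genes) summed to between 129 and 578 CPM, against 3.63 to 55.5 CPM in GF sham and 23.2 to 123 CPM in GF ICH day 3. They overlapped those of ABX ICH day 7 (4.88 to 411 CPM) and SPF ICH day 7 (22.4 to 181 CPM). Mmp9, a neutrophil marker, was at 0 in all 3 of these libraries. Csf3r, also on the neutrophil list, was at 0.677 to 164 CPM there, against 105 to 891 CPM in GF sham. Mitochondrial genes took 3.692% to 6.449% of counts there, against 0.878% to 3.518% in the other groups. The part of these other cells, of the mitochondrial share and of the low number of detected genes in the members' values was not tested, and in bulk RNA fewer cells of a type and less RNA per cell cannot be told apart.

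Low values of the members gathered in the same libraries. Of the 243 values (9 members in 27 libraries), 20 were under 5 CPM, and 18 of these were among the 63 values of the 7 libraries with few detected genes. The share under 5 CPM was 37% in GF ICH day 7 (10 of 27), 25.9% in ABX ICH day 7 (7 of 27) and 7.41% in GF sham (2 of 27). Among 5989 genes with a median of 10 to 1000 CPM, the same share was 45.4%, 41.7% and 26.1%, and in the other 6 groups 0.846% to 6.44%. Which member was near 0 differed from library to library.

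**Figure D3:**
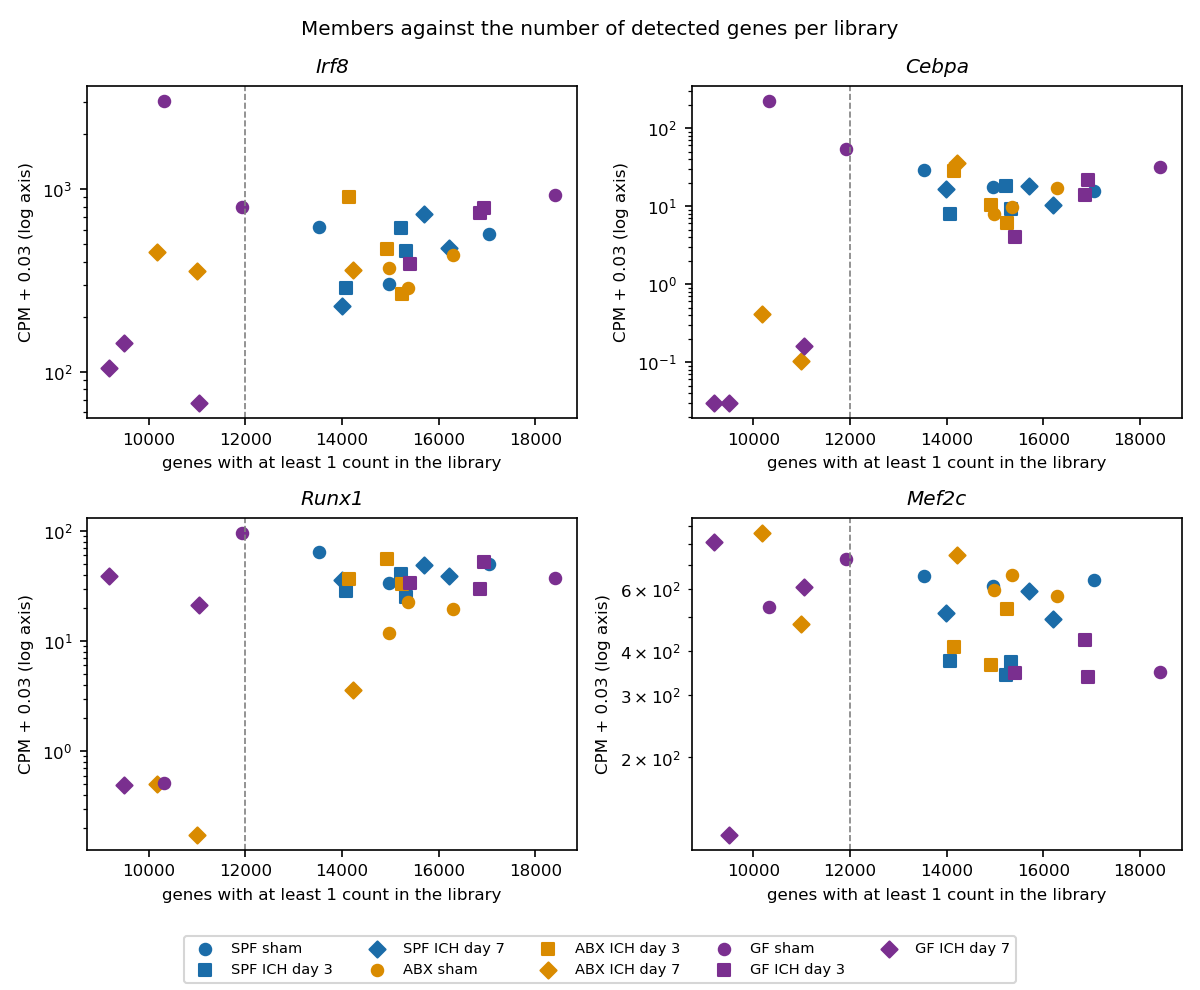
Levels of Irf8, Cebpa, Runx1 and Mef2c (CPM + 0.03, log axis) against the number of genes with at least 1 count, 1 point per library; colours are conditions, shapes are times, and the dashed line marks 12000 genes. Cebpa and Runx1 drop under 1 CPM only left of the line, while Irf8 reaches its highest value, 3036 CPM in GF sham replicate 1, there too.

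The change in germ-free mice also ran with base composition. Over 7348 genes with a mean of at least 10 CPM, the median log2 fold change from GF sham to GF ICH day 7 was 1.41 where GC content of the longest transcript was under 42%, and -3.93 at 58% or more. Cebpa has 62.6% GC and Spi1 58.9%, in the bin with a median of -3.93, of which 42.7% were called lower. Irf8, at 51.72%, lies in the bin from 50% to 54%, whose median was -1.74 and of which 32.4% were called lower. With offsets for GC content per library, Irf8 stayed called at -2.84 ± 0.56 (adjusted p = 0.00246, edgeR) and Cebpa at -9.5 ± 2.14 (adjusted p = 0.00653, edgeR). The same offsets ended the Irf8 calls against GF ICH day 3 (-1.35, adjusted p = 0.0966) and against SPF at day 7 (-1.16, adjusted p = 0.147, edgeR).

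**Figure D4:**
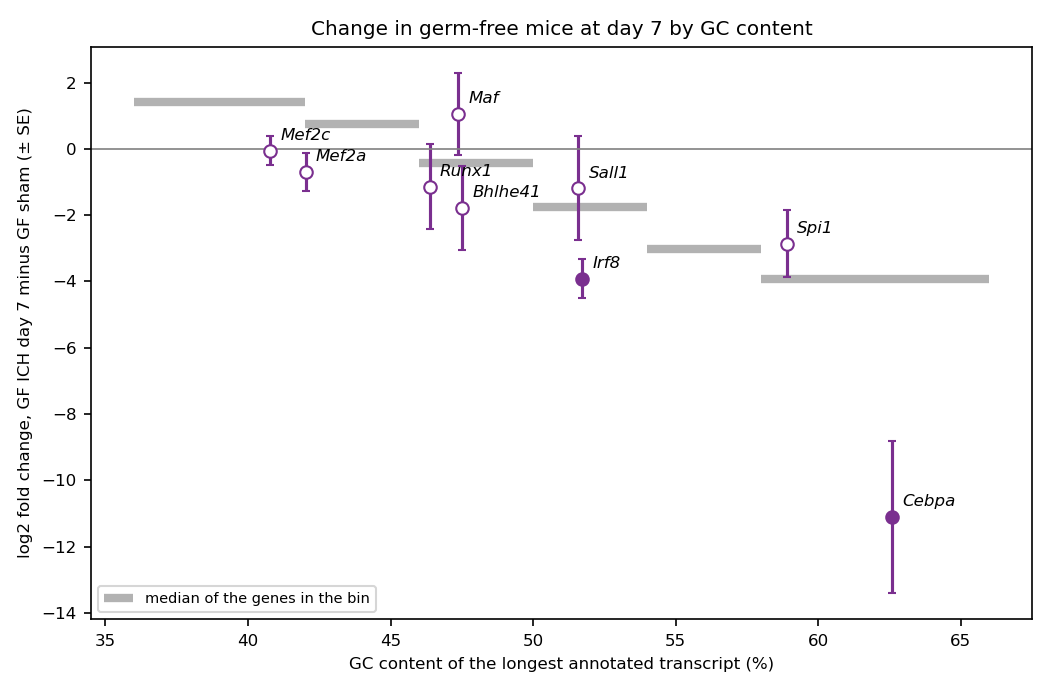
Log2 fold change (± SE) of each member from GF sham to GF ICH day 7 against the GC content of its longest transcript; grey bars are medians over the genes of each GC bin, drawn to 36% and 66% at the ends. Mef2c, at 40.78% GC, sits at -0.06, and Cebpa, at 62.6%, at -11.1.

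Spi1 (ENSMUSG00000002111, chromosome 2, 91082390 to 91115756, plus strand) ran lower in the same comparison without passing. It was at 1439, 401 and 546 CPM in GF sham, at 404, 426 and 504 CPM in GF ICH day 3, and at 187, 2.03 and 141 CPM in GF ICH day 7. The day 7 libraries did not overlap those of sham or day 3, and replicate 2 was near 0. The log2 fold change against sham was -2.86 ± 1.01, with an adjusted p of 0.0575 (edgeR). Of 11 alternatives, 4 called it lower: DESeq2 (-3.44, adjusted p = 0.00213), DESeq2 size factors in edgeR (adjusted p = 0.0276), limma voom (adjusted p = 0.045) and genes with a mean of at least 10 CPM (adjusted p = 0.0354, edgeR). The other 7, and all 6 fits with 1 library left out, did not, and with GC offsets the log2 fold change was -0.75 (adjusted p = 0.579, edgeR). In SPF mice Spi1 was at 208, 259 and 104 CPM in sham and at 194, 416 and 246 CPM at day 7, which overlap. Spi1, Irf8 and Cebpa were the 3 members without overlap between GF sham and GF ICH day 7, all lower, where 11.6% of tested genes were lower without overlap. Against GF ICH day 3 that share was 32.6%.

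Germ-free sham libraries held the highest mean of Spi1 (795 ± 562 CPM, SD, n = 3), Irf8 (1585 ± 1258 CPM) and Cebpa (103 ± 104 CPM). Replicate 1 was the highest of the 3 libraries for each gene, at 1439, 3036 and 222 CPM, and raised these means. All 3 genes were above SPF sham without overlap, as 3.09% of tested genes were. Irf8 differed by 1.67 ± 0.55, with an unadjusted p of 0.00544 and an adjusted p of 0.671 (edgeR), and none of the 9 members was called. In the whole comparison 1 gene of 17573 (0.00569%) was called.

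Runx1 (ENSMUSG00000022952, chromosome 16, 92601466 to 92826149, minus strand) was lowest in antibiotic-treated mice at day 7. Its levels were 11.9, 19.7 and 22.8 CPM in ABX sham, 36.7, 33 and 55.1 CPM in ABX ICH day 3, and 0.474, 0.144 and 3.54 CPM in ABX ICH day 7. The day 7 libraries lay below all others of that condition, including replicate 3, in which 14221 genes were detected. The log2 fold change against day 3 was -4.9 ± 1.51 (unadjusted p = 0.00339, adjusted p = 0.123, edgeR), and against sham -3.71 ± 1.42 (adjusted p = 0.189). DESeq2 called both, at -5.36 and -4.19. In edgeR 0.728% of genes were called in ABX day 7 against day 3, and 18.1% lay lower without overlap (22.4% against sham). Monocyte markers summed to between 14.3 and 811 CPM in ABX ICH day 7, against 7.52 to 19.4 CPM in ABX sham and 8.07 to 37.2 CPM in ABX ICH day 3. Mitochondrial genes took 1.945% to 3.518% of counts in ABX ICH day 7, against 1.015% to 1.544% in ABX sham and 1.117% to 2.188% in ABX ICH day 3, and the part of either in the Runx1 values was not tested.

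In SPF mice Runx1 was at 50.1, 63.8 and 33.4 CPM in sham and at 35.6, 49 and 39 CPM at day 7, which overlap. The ABX minus SPF difference in the day 7 response was -3.45 ± 1.86, with an adjusted p of 0.419 (edgeR). In germ-free mice Runx1 was scattered, at 0.483, 95.9 and 37.3 CPM in sham and at 0.463, 21.3 and 38.8 CPM at day 7.

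Sall1 (ENSMUSG00000031665, chromosome 8, 89027235 to 89044162, minus strand) was at 191, 51.4 and 184 CPM in SPF sham, 74.6, 61.4 and 79.5 CPM at day 3 and 67.2, 89.5 and 44.2 CPM at day 7. The groups overlap, and the log2 fold changes were -0.98 ± 1.55 and -1.08 ± 1.56. In GF ICH day 7 it was at 79.6, 0.414 and 0.189 CPM, and in ABX ICH day 7 at 0.996, 181 and 5.04 CPM. Libraries of the same group thus ran from a level like that of SPF mice to near 0, and no comparison passed. In GF sham, replicate 1 alone was near 0, at 1.37 CPM against 97.1 and 82.8 CPM.

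Bhlhe41 (ENSMUSG00000030256, chromosome 6, 145858243 to 145865558, minus strand) had the same pattern in GF ICH day 7, with 65 CPM in replicate 1 and 0.32 and 0.378 CPM in the other 2 libraries. Without that replicate 1, Sall1 and Bhlhe41 were called lower in GF ICH day 7 against sham, and 4 members were called in place of 2. The library left out holds the high value of both genes, and the share of all tested genes called in that fit is not given here. This count is therefore not read as particular to the members. In SPF mice Bhlhe41 was at 18.8, 33.1 and 24.5 CPM in sham and at 59, 56.2 and 44.4 CPM at day 3, above sham without overlap, as 9.18% of tested genes were. The log2 fold change was 1.06 ± 1.24 (adjusted p = 1, edgeR). In ABX mice the day 3 values, 82, 16.1 and 67.4 CPM, overlapped those of sham, and in GF mice the day 3 mean was lower than in sham.

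Maf (ENSMUSG00000055435, chromosome 8, 115682942 to 115707794, minus strand) showed the reverse arrangement within GF ICH day 7, with 0.421 CPM in replicate 1, 197 CPM in replicate 2 and 10.5 CPM in replicate 3. The group holds both the lowest and the highest value of the gene, and the log2 fold change against sham was 1.06 ± 1.23. In ABX mice Maf was at 115, 82.5 and 113 CPM in sham and at 60.4, 69.7 and 41.2 CPM at day 3, below sham without overlap, as 10.1% of tested genes were. The log2 fold change there was -0.86 ± 1.23 (adjusted p = 1, edgeR).

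Mef2a (ENSMUSG00000030557, chromosome 7, 67231163 to 67372858, minus strand) and Mef2c (ENSMUSG00000005583, chromosome 13, 83504034 to 83667080, plus strand) were never under 5 CPM. Over the 27 libraries Mef2a ranged from 70.6 to 467 CPM and Mef2c from 121 to 862 CPM. In the 20 libraries with at least 12000 genes their coefficients of variation were 34% and 26.3%, against 40.1% to 60.5% for the other 7 members. Their log2 CPM correlated with r = 0.76 over the 27 libraries and 0.79 over those 20, a description over libraries that share groups and depth.

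In SPF, ABX and GF mice alike, their lowest group means came at day 3. Mef2c was at 636, 650 and 612 CPM in SPF sham, at 343, 374 and 372 CPM at day 3 and at 511, 590 and 494 CPM at day 7. The day 3 libraries lay below both other groups, and those of day 7 below sham. Mef2a was at 216, 224 and 236 CPM in SPF sham, at 97.1, 133 and 70.6 CPM at day 3 and at 155, 126 and 129 CPM at day 7, where both ICH groups lay below sham. Without overlap, 6.98% of tested genes were lower at day 3 and 4.62% at day 7 than in sham in SPF mice, and 6.23% were higher at day 7 than at day 3. In ABX mice the day 3 values of Mef2c (410, 527 and 364 CPM) and Mef2a (99.3, 131 and 188 CPM) also lay below sham, at 573 CPM or more and 190 CPM or more. There 10.1% of tested genes were lower without overlap. In GF mice the day 3 values of Mef2c (430, 347 and 338 CPM) and Mef2a (135, 125 and 85.6 CPM) overlapped those of sham. The GF means went from 536 to 372 CPM for Mef2c and from 265 to 115 CPM for Mef2a. Border macrophage and dendritic cell markers stood above sham at day 3 in SPF and ABX mice, as given below. Their part in these values was not tested.

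The mean day 3 response over the 3 conditions was -0.96 ± 0.34 for Mef2a (unadjusted p = 0.00842, adjusted p = 0.179) and -0.61 ± 0.26 for Mef2c (unadjusted p = 0.027, adjusted p = 0.303, edgeR), so neither passed, where 0.267% of tested genes were called lower. DESeq2 called Mef2a at -1.09 (adjusted p = 0.0345), and limma voom at -0.88 (adjusted p = 0.0298). Without the 7 libraries of few detected genes, Mef2a and Mef2c were both called lower in SPF mice at day 3, at -1.18 and -0.81 (adjusted p = 0.0351 and 0.0285, edgeR). In GF mice at day 7, Mef2c was at 121, 606 and 815 CPM, and its replicate 1 was the lowest value of the gene. The sign of the Mef2c change from GF ICH day 3 to day 7 turned with the GC offsets, from 0.47 to -1.59 (adjusted p = 0.028, edgeR). The same offsets called Mef2a (-2.29, adjusted p = 0.0165) and Mef2c (-1.83, adjusted p = 0.0124, edgeR) lower against GF sham, where neither was called without them.

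Ordered by group mean, most neighbouring groups overlapped. No pair of neighbours was apart for Sall1, Maf, Mef2a, Mef2c and Bhlhe41. For Irf8, GF sham stood above GF ICH day 3, and ABX sham above GF ICH day 7. For Cebpa, GF sham stood above SPF sham, and ABX sham above GF ICH day 7. For Spi1 the gap was between GF ICH day 3 and ABX ICH day 3, and for Runx1 between ABX sham and ABX ICH day 7. Without overlap, 2.98% of tested genes were lower in GF ICH day 3 than in GF sham. In the same way 3.09% were higher in GF sham than in SPF sham, and 22.4% lower in ABX ICH day 7 than in ABX sham. Shares for the other gaps are not given here. Neighbours follow the order of these same means, so the gaps are a description only.

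The genes most like a member over the 27 libraries, by Pearson's r of log2 CPM among 2458 abundant genes, were Mcrip1 for Cebpa (r = 0.96), Ninj1 for Spi1 (0.94), Laptm5, a lysosomal membrane protein of blood cells, for Irf8 (0.92), Inpp4b for Mef2c (0.89) and Mef2c itself for Mef2a (0.76). For Sall1 it was Psmd13 (0.92), for Maf Rnf34 (0.92), for Runx1 Ccdc59 (0.9) and for Bhlhe41 B4galt1 (0.91). These descriptions lean on the libraries with few detected genes. Of the 27 nearest genes, 3 for each member, only 3 stayed among the nearest 3 by Spearman's rho. Over the 20 other libraries r fell to 0.37 for Sall1 and -0.25 for Runx1 and was 0.8 for Irf8.

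Among receptors and signal carriers upstream of the members (14 tested), Csf1r, the receptor that microglia need to survive, fell in germ-free mice at day 7, from 8030 ± 7195 CPM in sham to 131 ± 114 CPM (SD, n = 3). Its log2 fold change was -5.94 ± 1 (adjusted p = 0.000569, edgeR). Tgfbr2, the TGF-β receptor that binds the ligand, changed by -10.11 ± 1.82 there (adjusted p = 0.000984, edgeR), from 506 ± 777 to 0.455 ± 0.397 CPM. In all 5 of the 14 were called lower and 0 higher, beside 12.7% lower and 1.7% higher of all tested genes, with a median of -4.22 against -2.1 over all genes. Here and for the lists below, these shares and medians include genes of low count and are not matched for level or GC content. Among genes with a mean of at least 10 CPM, 5.58% to 42.7% were called lower in GF ICH day 7 against sham, by GC bin. The list counts in that comparison are therefore not read as particular to the lists. Tgfbr1, the partner of Tgfbr2, was not called there but fell in the mean day 3 response (-1.54 ± 0.3, adjusted p = 0.00669, edgeR), the only upstream gene called in it. It stood at 599 ± 96.5 CPM in SPF sham and 193 ± 66.4 CPM in SPF ICH day 3. Tgfbr1 rose in the mean of day 7 minus day 3 (1.57 ± 0.3, adjusted p = 0.00142, edgeR). It was higher in GF ICH day 7 (1077 ± 591 CPM) than in GF ICH day 3 (212 ± 22.1 CPM), by 2.35 ± 0.53 (adjusted p = 0.00571, edgeR), and than in SPF ICH day 7 (281 ± 24 CPM), by 1.94 ± 0.52 (adjusted p = 0.0178, edgeR).

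Among paralogs and binding partners of the members (20 tested), 6 were called lower and 0 higher in GF ICH day 7 against sham, beside 12.7% lower and 1.7% higher of all tested genes, with a median of -5.2 against -2.1 over all of them. Irf5, Irf1 and Irf2, further interferon regulatory factors, changed by -8.76 ± 1.61, -6.32 ± 1.39 and -9.2 ± 1.72. Of 21 other macrophage transcription factors, 7 were called lower and 0 higher beside the same shares, with a median of -4.14 against -2.1. Mitf and Tfe3, relatives that drive lysosomal genes, changed by -9.45 ± 1.96 and -9.07 ± 2.16. Mitf stood at 0.0376 ± 0.0651 CPM in GF ICH day 7 against 28.5 ± 9.35 CPM in SPF ICH day 7.

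Of 19 stimulus-responsive factors, 8 were called lower and 1 higher in the same comparison, beside 12.7% lower and 1.7% higher of all tested genes, with a median of -4.88 against -2.1 over all of them. The higher gene was Hif1a, the oxygen-sensing factor, at 136 ± 171 CPM in GF sham and 656 ± 425 CPM in GF ICH day 7 (log2 fold change 2.27 ± 0.74, adjusted p = 0.0417, edgeR). Fos and Egr1, immediate early genes, changed by -8.47 ± 1.61 and -9.23 ± 1.63.

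Of 18 homeostatic genes that the members are known to maintain, 6 were called lower and 0 higher in the mean day 3 response, among them Cst3, P2ry12 and Gpr34. Of all tested genes 0.267% were called lower there. The median of the 18 was -1.06, against -0.06 over all tested genes, and 0 of the 9 members was called in that comparison. P2ry12, the ADP receptor of resting microglia, changed by -1.84 ± 0.21 (adjusted p = 9.76e-06, edgeR) and stood at 8185 ± 2098 CPM in SPF sham and 2410 ± 636 CPM in SPF ICH day 3. Cst3, the protease inhibitor cystatin C, changed by -1.62 ± 0.15 (adjusted p = 5.13e-07, edgeR). Border macrophage markers (7 genes) summed to 40 to 148 CPM in SPF ICH day 3 against 0.809 to 8.41 CPM in SPF sham. Dendritic cell markers (6 genes) summed to 45.2 to 54.8 CPM against 1.62 to 19.3 CPM. Both sums also stood above sham in ABX mice at day 3 and overlapped sham in GF mice. The part of these cells in the day 3 falls, those of Mef2a, Mef2c and Tgfbr1 included, was not tested.

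From day 3 to day 7, over the 3 conditions, the same 18 genes split, with 7 called higher and 3 lower, beside 3.34% higher and 16.8% lower of all tested genes. Their median was -0.21, against -1.17 over all tested genes. Gpr34, a lysophospholipid receptor, rose by 2.27 ± 0.2 (adjusted p = 3.44e-07, edgeR), and reached 8395 ± 1357 CPM in GF ICH day 7 against 1910 ± 208 CPM in SPF ICH day 7. Ctss, the protease cathepsin S, rose by 1.36 ± 0.16 (adjusted p = 1.55e-05, edgeR). Cx3cr1, Sparc and Olfml3 were the 3 called lower. In GF ICH day 7 against sham, 1 of the 18 was called higher, Gpr34, and 8 lower, beside 1.7% higher and 12.7% lower of all tested genes and with a median of -1.72 against -2.1, in the comparison in which Irf8 and Cebpa fell.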

How the data were processed

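RNA was measured in microglia sorted from 27 mouse brain samples in 9 groups, taken from the labels. A low-input SMART-Seq kit and paired Illumina NovaSeq reads were used, per the labels' protocols. Per the submitters' processing notes, cutadapt 1.9, HISAT2 2.0.4, StringTie 1.3.4d, edgeR and the mm10 assembly were used; the annotation release, the strand setting and the counting rule are not given in the sources used here. The deposited table holds whole-number counts per gene, not normalized. Symbols, coordinates and transcript GC content come from GENCODE M21 (GRCm38), which named 52073 of 56691 identifiers; the others hold 1.269% of counts.

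Genes were kept by filterByExpr of edgeR, which left 17573 with 99.94% of counts. The 24 comparisons come from 1 quasi-likelihood fit of edgeR 4.0.16 (R 4.3.3) over the 9 group means with TMM scaling, with Benjamini-Hochberg adjusted p-values over all tested genes at 0.05. The common biological coefficient of variation was 1.54. The fit was tested on simulated data with a spread between libraries below that of these data and with changes at day 3 only. That test does not bear on the calls at day 7. Shown levels are CPM, with SD over 3 libraries, and 95% intervals of fold changes are normal intervals from the SE.

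The members, gene lists and marker lists were chosen with earlier results of these data known. Named genes are the 9 members, up to 4 genes per list with the smallest adjusted p among those called in the mean day 3, mean day 7 or mean day 7 minus day 3 comparisons, and the 3 genes most alike to each member. Cx3cr1, Sparc, Olfml3 and Mmp9 were named after their values were seen. Alternatives were DESeq2 1.42.0, limma voom (limma 3.58.1), DESeq2 size factors, other filters, a replicate block, GC offsets, a fit on the groups compared only, and leaving libraries out. Alternatives using library totals, or leaving out the 2 GF sham libraries under 12000 genes, were added after seeing the data. A further alternative, also added after seeing the data, left out the first GF sham and first GF ICH day 7 libraries; it raised the number of members called, and was dropped because those libraries had been picked by the members' own values. Replicate numbers are shared between groups without a stated pairing. Some list genes are not reported here.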

Additional observations from a re-analysis of the deposited data

Results flagged for a closer look

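Among the 9 members and the 20 genes named from the lists, 16 differed between germ-free and SPF mice in their response at day 7, by the test of that difference in edgeR at an adjusted p of 0.05. Each value is the log2 fold change from sham to day 7 in GF mice minus that in SPF mice. Of the members, Irf8 differed by -3.85 and Cebpa by -10.65.

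Among partners and other factors, Irf5 differed by -8.3, Irf1 by -7.09, Irf2 by -9.46, Mitf by -9.63, Tfe3 by -8.62 and Tfeb by -15.39. Among stimulus-responsive factors, Rela differed by -9.38, Egr1 by -7.82 and Fos by -5.85. Upstream of the members, Csf1r differed by -5.59, Tgfbr2 by -9.65 and Csf2rb by -8.31. Gpr34 and P2ry12, homeostatic genes, differed the other way, by 2.51 and 1.83. Of all tested genes, 6.76% were called lower and 0.285% higher in this difference. The list genes had been picked by adjusted p in mean comparisons, most of which hold the same GF ICH day 7 libraries. Their number here therefore cannot be read against these shares. Tfeb has 3 counts, Mitf 6, Cebpa 7 and Tfe3 8 in the GF ICH day 7 libraries together, so the size of these fitted values depends on the prior count.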

How the results depend on the processing

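A member is called at an adjusted p under 0.05. The share of all tested genes called under each alternative is not given here, so the counts of members below are not read against a background. Irf8 in GF ICH day 7 against sham was called in 10 of 11 alternatives and in all 6 fits that left out 1 library, from -4.57 to -2.72, and Cebpa in 10 of 11 and 6 of 6. The exception was the fit on the groups compared only, where Irf8 was at -3.72 (adjusted p = 0.0594) and Cebpa at -10.99 (adjusted p = 0.214), so 0 members were called against sham, and 0 in the GF minus SPF difference in day 7 response. Against SPF at day 7, Irf8 was called in 3 of 6 and Cebpa in 5 of 6 fits with 1 library left out.

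The number of members called moved as follows. In GF day 7 against sham, 4 alternatives added Spi1, for 3 members called: DESeq2, its size factors, limma voom and genes of at least 10 CPM. DESeq2 called 1 in ABX day 7 against sham, against day 3 and against SPF, and in the mean ABX minus SPF difference (Runx1 each time), 1 in the mean day 3 response (Mef2a), 1 in the mean GF minus SPF difference (Cebpa) and 4 in the mean day 7 response. Limma voom called 4 in GF day 7 against day 3, 1 in GF against SPF at day 7 (Cebpa) and 1 in the mean day 3 response (Mef2a). It called 1 in the mean day 7 response (Cebpa), 4 in the mean day 7 minus day 3 (Spi1, Runx1, Cebpa and Bhlhe41) and 1 in the mean GF minus SPF difference (Cebpa). In the GF minus SPF difference in day 7 response, limma voom called Spi1 (-4.9, adjusted p = 0.0354) and not Irf8 (-3.48, adjusted p = 0.0526). DESeq2 also called Spi1 there (-3.92, adjusted p = 0.0226). GC offsets called 4 in GF day 7 against sham and in the mean day 7 response and 0 in the mean day 7 minus day 3. Library totals called 4 in the mean day 7 response, and leaving out the 2 GF sham libraries under 12000 genes called 1 in the GF minus SPF difference. With no filter 0 members, and in the fit on the groups compared 1 member, were called in the mean day 7 minus day 3.

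Leaving out the 7 libraries under 12000 genes called 2 members in SPF day 3 against sham, and 2 (Sall1 and Runx1) in ABX day 7 against sham, against day 3 and against SPF and in the mean ABX minus SPF difference. ABX ICH day 7 is then the lone replicate 3, assumed to vary like the other groups, and no value could be had with GF ICH day 7. There Sall1 against sham turned from 0.05 to -3.87. With GC offsets Mef2c in GF day 7 against day 3 turned from 0.47 to -1.59, and with block and offsets to -1.62. The cause was not tested.

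With 1 library left out, members called ranged from 0 to 1 in ABX day 7 against day 3, from 2 to 4 in GF day 7 against sham, against day 3 and in the mean day 7 response, from 0 to 4 in GF against SPF at day 7, from 1 to 3 in the GF minus SPF difference and from 0 to 4 in the mean day 7 minus day 3, where 15 of 18 fits moved the count. The count of 4 came without GF ICH day 7 replicate 1, and 0 in GF against SPF without replicate 3.

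Same-numbered libraries did not deviate together (45 pairs, r from -0.16 to 0.13, 3 over 0.1). Low correlation over genes cannot exclude a pairing that the labels leave unstated. The replicate block changed the count only in the mean day 7 minus day 3, to 1 (Irf8). The block with GC offsets gave 4 in GF day 7 against sham, 0 in the GF minus SPF difference, 1 in the mean day 7 response and 0 in the mean day 7 minus day 3.

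Of 4437 member values under the alternatives, 53 lost a call, 58 gained one and 3, given above, changed sign with a call. A further 303 changed sign while called neither way, from fitted values of at most 2.02 (median 0.16), and are not counted as reversals. Low counts limit the lowest values. Cebpa rests on 7 counts in GF ICH day 7, whose libraries held 53873467 to 72415932 counts in all.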
